A study of Caenorhabditis elegans with 11 samples.

Results

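The genes described are skn-1 and 8 regulators or partners of its protein: wdr-23, tir-1, nsy-1, sek-1, pmk-1, gsk-3, mdt-15 and elt-3. These 9 genes are among 17118 genes with a name on the C. elegans array. They were measured by every probe set, a group of short DNA probes against a transcript, that GEO's platform annotation assigns to one of them alone. There were 14 such probe sets among 22548, covering 8 of the 9 genes. The annotation used here assigned no probe set to nsy-1 alone, so it is named only. Of the 14, 13 passed a filter on low signal, which asked that at least 3 of the 11 arrays reach the 40th percentile of their own array. The 1 that did not was a probe set of gsk-3 (172990_at).

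Whole 3-day-old sterile hermaphrodites of Caenorhabditis elegans were measured on 11 Affymetrix arrays, in 3 groups. The first was exposed to oxygen after RNA interference (RNAi) had been directed at skn-1 (skn-1 RNAi with oxygen, n = 3), the second had oxygen alone (oxygen, n = 4), and the third was left untreated (control, n = 4). The exposed worms spent 6 hours at 20°C in 99% oxygen, under a pressure of 40 PSI, and all worms had been raised at 25°C from the first larval stage. Sample labels give the strain of all 3 groups as TJ1090, whereas the design text gives TJ1060, so the strain is uncertain. Pressure, the cooler chamber and handling cannot be told apart from oxygen. The labels do not state which stretch of skn-1 the RNAi covered or what food the other worms ate. Worms with skn-1 RNAi and no oxygen are not analysed here. In whole worms, fewer cells of a type and less RNA per cell cannot be told apart.

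SKN-1, the worm relative of the mammalian Nrf proteins, is a transcription factor that turns on detoxification and antioxidant genes, above all in the intestine. The nuclear protein WDR-23 brings SKN-1 to a ubiquitin ligase that marks it for destruction, the p38 kinase cascade of TIR-1, NSY-1, SEK-1 and PMK-1 phosphorylates it and favours its entry into the nucleus, and GSK-3 phosphorylates it and keeps it out. MDT-15, a subunit of the Mediator coactivator, and the GATA factor ELT-3 act with SKN-1 at target genes. Most of this control acts on the proteins, which the arrays did not measure, so the values below are transcript signals only.

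The signals are the deposited MAS5 intensities, on a linear scale, with array medians of 27.4 to 79.1. The arrays fell into 2 sets by their poly-A spike-in transcripts, whose median signal was 2.95 to 14 on the 7 arrays of set 2 and 110 to 211 on the 4 arrays of set 1 (control 1 and 2, oxygen 1 and 2). Set 2 holds control 3 and 4, oxygen 3 and 4 and all 3 skn-1 RNAi arrays. No label names these sets. The design text names 2 hybridisation sites but not which array was run where. With group in the fit, 6828 of the 15389 tested probe sets (44.4%) differed between the sets, and so did 8 of the 13 tested here, 7 of them higher in set 2. Values from a fit with the array set as a further term (the set-blocked fit), or within a set, are therefore given for the 13 probe sets where a difference was resolved or moved between fits, and as counts for the gene lists. Control 4 had the lowest mean correlation with its own group, 0.822, against 0.854 to 0.956 for the other 10 arrays. The control and oxygen groups span both sets and the skn-1 RNAi group does not, so these correlations also carry the gap between the sets.

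For skn-1, the gene targeted by the RNAi, no probe set passed the test in any of the 3 comparisons when group was the only term. Its 3 probe sets (194169_s_at, 174799_at and 188421_at) are described in turn. Probe set 194169_s_at read 235, 371 and 435 on the skn-1 RNAi arrays 1 to 3, 488, 417, 681 and 455 on the oxygen arrays 1 to 4, and 447, 442, 797 and 454 on the control arrays 1 to 4. All 3 skn-1 RNAi arrays lay below all 4 control arrays, but the third lay above the lowest oxygen array. The log2 difference of skn-1 RNAi with oxygen was −0.62 ± 0.31 from control (SE, adjusted p = 0.285; −0.81, adjusted p = 0.171 in the set-blocked fit). From oxygen it was −0.58 ± 0.31 (adjusted p = 0.547; −0.76, adjusted p = 0.318 in the set-blocked fit). The labels do not say whether any of the probes lie inside the stretch used for RNAi, where they could also pick up the introduced RNA.

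Probe set 174799_at of skn-1 read 263, 386 and 285 on the skn-1 RNAi arrays, 276, 286, 629 and 468.5 on the oxygen arrays, and 251, 267, 671 and 654 on the control arrays. The oxygen and control arrays split by array set: those of set 1 lay between 251 and 286, which overlaps the skn-1 RNAi arrays, and those of set 2 between 468.5 and 671. Set 2 was higher than set 1 by log2 1.15 ± 0.18 with group in the fit (2.22-fold, adjusted p = 0.00119). Among the set 2 arrays alone, every skn-1 RNAi array lay below every oxygen and every control array. In the set-blocked fit the log2 difference from control was −1.01 ± 0.22 and passed the test (adjusted p = 0.0341), against −0.43 ± 0.45 with group only (adjusted p = 0.589). This call was made in 1 of 21 alternatives, in which the adjusted p ranged from 0.0341 to 0.797. It was lost when each array was also centred on its median before the set-blocked fit (−1.07, adjusted p = 0.0532). From oxygen the set-blocked fit without centring gave −0.92 ± 0.22, with a 95% interval of −1.41 to −0.44, which did not pass (adjusted p = 0.11). Within set 2 the differences were −1.11 from control (adjusted p = 0.11) and −0.82 from oxygen (adjusted p = 0.333).

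Probe set 188421_at of skn-1 read 256, 345 and 398 on the skn-1 RNAi arrays, 132, 75.7, 372 and 505 on the oxygen arrays, and 92.9, 78.2, 427 and 485 on the control arrays. It was 4.81-fold higher in set 2 than in set 1 with group in the fit (log2 2.27 ± 0.23, adjusted p = 0.000196), the widest gap between the sets of the 13 probe sets. Its difference of skn-1 RNAi with oxygen from control changed sign with the handling of the sets: log2 0.73 ± 0.81 with group only (adjusted p = 0.613), −0.40 ± 0.27 in the set-blocked fit (adjusted p = 0.425) and −0.47 within set 2 (adjusted p = 0.408). With the array sets' means removed, the 3 probe sets of skn-1 correlated over the 11 arrays with r of 0.50 to 0.80, as a description of arrays that share their groups.

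Oxygen alone left no difference in skn-1 signal that could be resolved. Against control, the log2 differences of probe sets 194169_s_at, 174799_at and 188421_at were −0.05 ± 0.29, −0.09 ± 0.41 and 0.08 ± 0.75. Their 95% intervals ran from −0.69 to 0.60, from −1.0 to 0.83 and from −1.59 to 1.75. The interval of 194169_s_at is the narrowest of these and that of 188421_at the widest. In the set-blocked fit, the standard error of 188421_at was 0.23 and its difference stayed at 0.08 (adjusted p = 0.877).

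**Figure D1:**
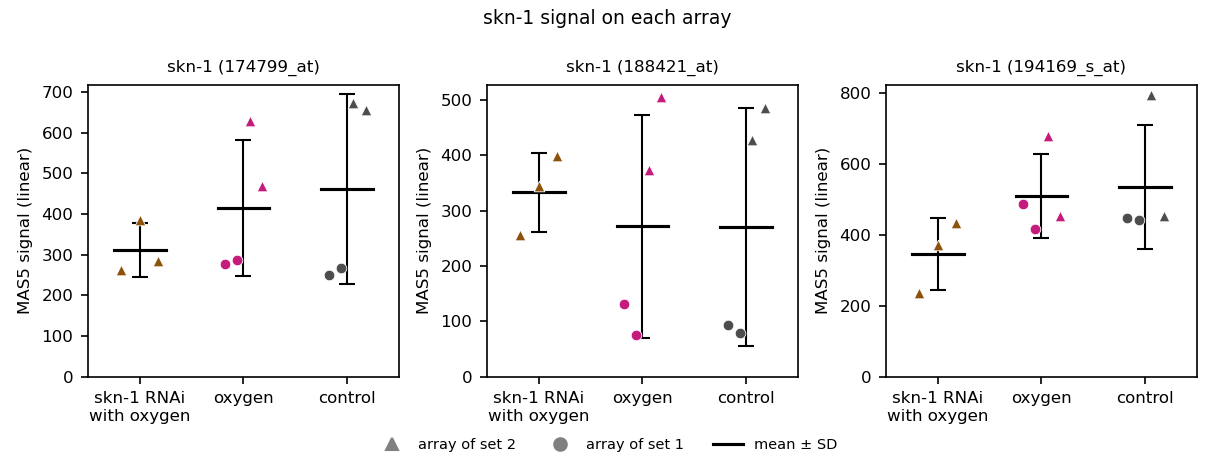
MAS5 signal (linear) of the 3 skn-1 probe sets on each array, for skn-1 RNAi with oxygen, oxygen and control; triangles are arrays of set 2, circles arrays of set 1, and bars give the mean ± SD. In probe set 174799_at the set 2 oxygen and control arrays (468.5 to 671) sit above the 3 skn-1 RNAi arrays (263 to 386), while the set 1 arrays (251 to 286) do not.

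The transcript of wdr-23, the repressor of SKN-1, passed the test in no comparison. Probe set 192424_s_at read 629, 799 and 801 on the skn-1 RNAi arrays, 799, 779.7, 844 and 629.8 on the oxygen arrays, and 646.5, 608, 754 and 416 on the control arrays. The 3 groups overlapped. The mean was 743 ± 99.0 in skn-1 RNAi with oxygen, 763 ± 92.8 in oxygen and 606 ± 141 in control (SD, n = 3, 4 and 4). Oxygen differed from control by log2 0.36 ± 0.23 (95% interval −0.15 to 0.86, adjusted p = 0.581). After each array was centred on its median the difference was 0.00. That centring also moved the median over all tested probe sets, from 0.055 to −0.31. The difference of skn-1 RNAi with oxygen from oxygen was −0.04 ± 0.25 (95% interval −0.59 to 0.51), and 0.03 ± 0.25 in the set-blocked fit. The gap of wdr-23 between the array sets did not pass the test (log2 −0.14 ± 0.21, set 2 minus set 1, adjusted p = 0.614).

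Of the p38 cascade, tir-1 was the 1 gene called with group only: it rose over control in oxygen and in skn-1 RNAi with oxygen. TIR-1 is a Toll/interleukin-1 receptor domain protein, the worm counterpart of SARM1, and stands at the top of the cascade. Probe set 192441_s_at read 934.8, 472.5 and 1007.5 on the skn-1 RNAi arrays, 470.2, 439.7, 777.5 and 766.7 on the oxygen arrays, and 142, 132, 224 and 238 on the control arrays. Each of the 7 exposed arrays lay above each of the 4 control arrays. The mean was 805 ± 290.2 in skn-1 RNAi with oxygen, 614 ± 184 in oxygen and 184 ± 54.6 in control (SD, n = 3, 4 and 4).

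Oxygen raised this probe set 3.33-fold over control (log2 1.74 ± 0.34, adjusted p = 0.0194). For this probe set the size was log2 1.74 within set 2 and 1.73 within set 1, where the smaller numbers of arrays gave adjusted p of 0.0821 and 0.0769. In the set-blocked fit the adjusted p was 0.00205. The call was lost after median centring (log2 1.38, adjusted p = 0.0605) and without control 1, control 2, oxygen 3 or oxygen 4 (log2 1.6 to 1.63, adjusted p = 0.0621, 0.0634, 0.0663 and 0.062). In skn-1 RNAi with oxygen it was 4.30-fold above control (log2 2.10 ± 0.37, adjusted p = 0.0149; 1.72, adjusted p = 0.0107 in the set-blocked fit; 1.73, adjusted p = 0.0813 within set 2). That call was lost after median centring (log2 1.53, adjusted p = 0.062) and when skn-1 RNAi array 1 or 3 was left out (log2 1.96 and 1.90, adjusted p = 0.0757 and 0.0748). The difference of skn-1 RNAi with oxygen from oxygen was log2 0.37 ± 0.37 (95% interval −0.45 to 1.18, adjusted p = 0.698), and −0.01 ± 0.28 in the set-blocked fit. The interval is wide, so it does not show that the RNAi left tir-1 alone.

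The second tir-1 probe set, 174406_at, read 414.5, 197 and 225 on the skn-1 RNAi arrays, 212.5, 189, 609.8 and 424 on the oxygen arrays, and 80.1, 99.0, 145 and 74.1 on the control arrays. Again every exposed array lay above every control array. Its log2 difference of oxygen from control was 1.73 ± 0.42 (3.32-fold), with adjusted p = 0.0519, just short of the threshold. The set-blocked fit called it (adjusted p = 0.0142), and over all 22 alternatives the adjusted p lay between 0.0142 and 0.165. Its size differed between the array sets, log2 2.29 within set 2 and 1.17 within set 1 (adjusted p = 0.0698 and 0.139), and that difference was not tested. In skn-1 RNAi with oxygen it was 1.46 ± 0.46 above control (adjusted p = 0.119; 1.07, adjusted p = 0.18 in the set-blocked fit). From oxygen it differed by −0.27 ± 0.46 (adjusted p = 0.821; −0.67, adjusted p = 0.495 in the set-blocked fit). The 2 tir-1 probe sets correlated with r = 0.83 over the 11 arrays with set means removed.

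Neurons are a cell type in which tir-1 also acts, and 10 of their marker genes were tested. In skn-1 RNAi with oxygen against control 1 of these rose with group only (sbt-1, log2 1.00 ± 0.23, adjusted p = 0.0475), and the set-blocked fit called 0. Their median log2 difference was 0.89 with group only and 0.45 in the set-blocked fit. At an unadjusted p under 0.05, 5 were higher (20.8% of all tested probe sets had one in either direction). The groups did not overlap in 7, all higher, against 23.6% of all tested probe sets (16.9% higher). In oxygen against control 0 passed limma's test with group only, and 3 were higher at an unadjusted p under 0.05 (10.4% of all). The set-blocked fit called 2 higher, snb-1 and ric-19 (adjusted p = 0.0211 and 0.0182), beside 7.39% of all. Their summed signal was 4053 to 4924 in skn-1 RNAi with oxygen, 3144 to 5239.6 in oxygen and 2252 to 3679 in control, and no marker was listed at 0. Their part in the tir-1 result was not tested.

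The MAP kinase kinase sek-1, below TIR-1 and NSY-1, did not pass the test with group only in any comparison. Probe set 192392_at read 193, 249.8 and 187 on the skn-1 RNAi arrays, 139.9, 109, 199 and 322 on the oxygen arrays, and 46.0, 45, 70.1 and 214.5 on the control arrays. Without control 4, all exposed arrays would lie above the control arrays. The oxygen minus control log2 difference was 1.24 ± 0.51 (2.37-fold, adjusted p = 0.281). The set-blocked fit called it (1.24 ± 0.33, adjusted p = 0.0473), as did the fit lacking control 4 (1.75, adjusted p = 0.033), and over the 22 alternatives the adjusted p lay between 0.033 and 0.54. Within set 2 the difference was 1.05 (adjusted p = 0.39), and within set 1 it was 1.44 (adjusted p = 0.109).

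The other sek-1 probe set, 175279_s_at, read 243, 223 and 203 on the skn-1 RNAi arrays, 176, 109, 429 and 438.5 on the oxygen arrays, and 107, 114, 237 and 256 on the control arrays. The 2 oxygen arrays of set 2 stood highest, above all 3 skn-1 RNAi arrays, which are of the same set. Within set 2, skn-1 RNAi with oxygen was lower than oxygen by log2 −0.96 (adjusted p = 0.209), and in the set-blocked fit by −0.84 ± 0.23 (adjusted p = 0.15). With group only the difference was −0.14 ± 0.52 (adjusted p = 0.928). The probe sets of sek-1 correlated with r = 0.47 after removal of set means.

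The p38 kinase gene itself, pmk-1, ran the other way between the sets. Probe set 191432_at read 206, 140.1 and 215 on the skn-1 RNAi arrays, 257.5, 293, 128 and 158 on the oxygen arrays, and 200.5, 294, 71.9 and 75.0 on the control arrays. It was lower in set 2 than in set 1, by log2 −1.34 ± 0.23 (adjusted p = 0.0019), the only 1 of the 8 differing probe sets to be so. Within set 2 the oxygen arrays stood above the control arrays (log2 0.95, adjusted p = 0.174), and the skn-1 RNAi arrays above the control arrays (1.32, adjusted p = 0.0781). Within set 1 the oxygen minus control difference was 0.18 (adjusted p = 0.777). In the set-blocked fit, skn-1 RNAi with oxygen was 1.13 ± 0.28 above control (adjusted p = 0.0529), against 0.46 ± 0.52 with group only (adjusted p = 0.624).

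**Figure D2:**
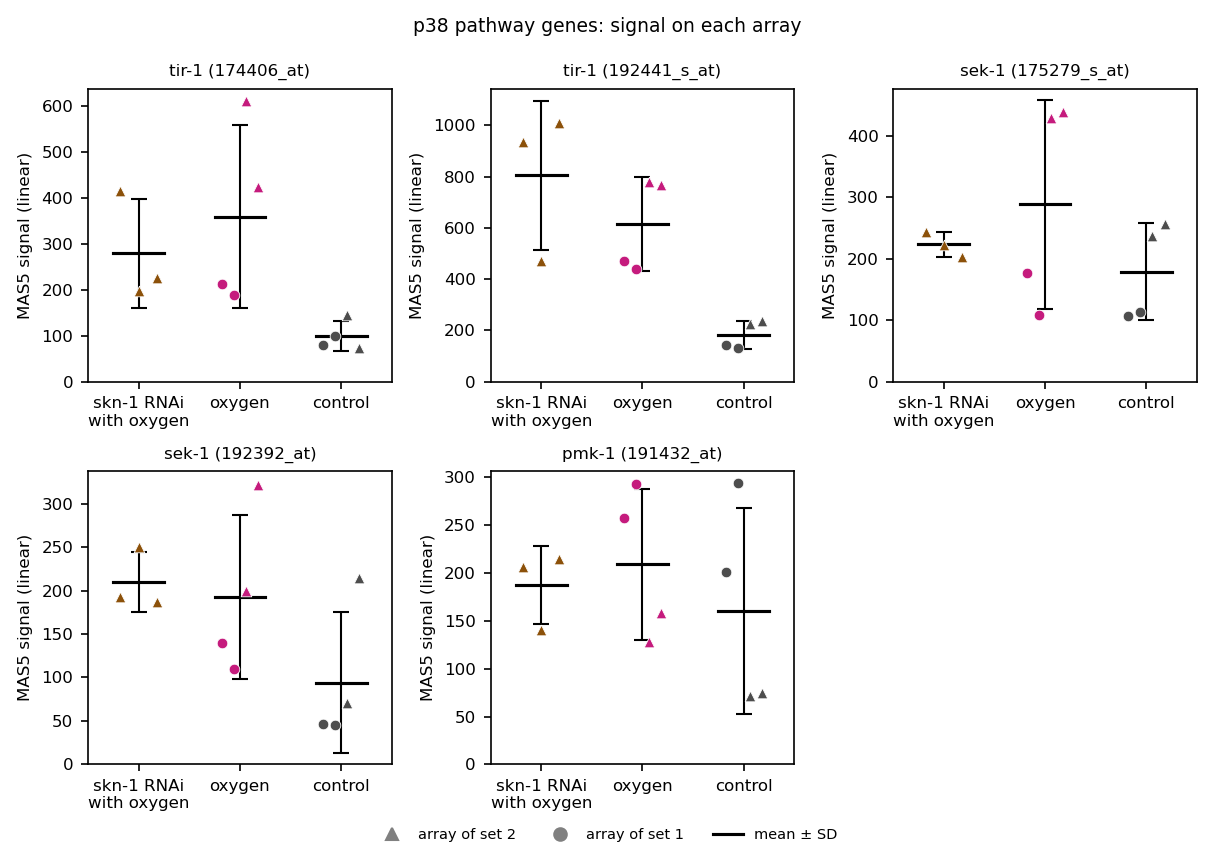
MAS5 signal (linear) of the tir-1, sek-1 and pmk-1 probe sets on each array, for skn-1 RNAi with oxygen, oxygen and control; triangles are arrays of set 2, circles arrays of set 1, and bars give the mean ± SD. Both tir-1 panels show all 7 exposed arrays above the 4 control arrays, and the pmk-1 panel shows the circles above the triangles within oxygen and within control.

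The kinase gene gsk-3, whose product restrains SKN-1, gave the largest log2 difference of the 13 probe sets in both comparisons with skn-1 RNAi. Probe set 192402_at read 153, 129 and 141 on the skn-1 RNAi arrays, 40.4, 72.1, 17 and 15.3 on the oxygen arrays, and 13.3, 26.4, 7.5 and 49.1 on the control arrays. The 3 skn-1 RNAi arrays lay above all 8 others and close to each other. The signal reached the 40th percentile of the array on 3 of 3 skn-1 RNAi arrays, 2 of 4 oxygen arrays and 2 of 4 control arrays, so the other values lie below that level of their arrays. The mean was 141 ± 12.1 in skn-1 RNAi with oxygen, 36.2 ± 26.5 in oxygen and 24.1 ± 18.5 in control (SD, n = 3, 4 and 4).

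Against control, the log2 difference of gsk-3 in skn-1 RNAi with oxygen was 2.89 ± 0.68 (adjusted p = 0.0491; 3.32, adjusted p = 0.0314 in the set-blocked fit). Its size depended on the scale used: it was 2.07 with 16 added to each signal (adjusted p = 0.0165), 2.38 after quantile normalization (adjusted p = 0.181) and 2.31 after median centring (adjusted p = 0.211). This call was made in 7 of 21 alternatives, in which the adjusted p ranged from 0.0165 to 0.211, and in 2 of the 11 fits that each left out 1 array. It was lost without control 1, 2 or 3, oxygen 1, 3 or 4, or any skn-1 RNAi array, with log2 values of 2.44 to 3.05 and adjusted p of 0.0507 to 0.169. It was also lost within set 2 (2.87, adjusted p = 0.116). Against oxygen the difference was log2 2.25 ± 0.68 (1.72 with 16 added) with an unadjusted p of 0.00761, and it did not pass the adjustment (adjusted p = 0.353; 2.68, adjusted p = 0.141 in the set-blocked fit; 3.12, adjusted p = 0.219 within set 2). Oxygen differed from control by 0.64 ± 0.63 (adjusted p = 0.786). The other gsk-3 probe set, 172990_at, ranged from 1.3 to 74.2 over the arrays, reached the 40th percentile on 2 of 11, and correlated with the first with r = 0.18 after removal of set means; its 3 skn-1 RNAi arrays read 28.4, 4.3 and 11.7.

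The hybridisation controls and the body wall muscle markers also set the skn-1 RNAi group apart. The geometric mean of the hybridisation controls was 756 to 923 there, against 468 to 551 in oxygen and 429.7 to 620.5 in control. The summed signal of body wall muscle markers was 16505 to 18886 in skn-1 RNAi with oxygen, 8328 to 14418 in oxygen and 7669.6 to 15684 in control. Of 8 tested muscle markers, 3 were higher than in oxygen and 5 higher than in control at an unadjusted p under 0.05 (9.77% and 20.8% of all tested probe sets had one in either direction). With group only 0 passed limma's adjustment in either comparison, and none was listed at 0. Set-blocked, 1 was called higher than in control, unc-54 (log2 0.97, adjusted p = 0.0262). Of 9 tested sperm markers, 4 were higher than in control at an unadjusted p under 0.05. Their summed signal overlapped between the groups, at 6134 to 8327 in skn-1 RNAi with oxygen, 1194 to 8332 in oxygen and 809 to 6858 in control. The median log2 difference of the sperm markers in skn-1 RNAi with oxygen was 2.1 from control and 1.4 from oxygen with group only. In the set-blocked fit it was 0.68 and 0.32. The part of these measures in the gsk-3 result was not tested.

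The Mediator subunit gene mdt-15 differed between the array sets and passed the test in no comparison of groups with group only. Probe set 179869_at read 288, 320.4 and 298.5 on the skn-1 RNAi arrays, 101, 50.1, 251 and 427 on the oxygen arrays, and 66.3, 66.8, 144.5 and 349 on the control arrays. Set 2 was 3.94-fold above set 1 (log2 1.98 ± 0.33, adjusted p = 0.00149). With group only, skn-1 RNAi with oxygen stood 0.98 ± 0.76 above oxygen (adjusted p = 0.629), whereas in the set-blocked fit the difference was −0.01 ± 0.39 (adjusted p = 0.996). Oxygen differed from control by 0.32 ± 0.70 (adjusted p = 0.938), and by 0.32 ± 0.33 in the set-blocked fit (adjusted p = 0.607).

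The GATA factor gene elt-3, expressed in the epidermis, passed the test in no comparison, with or without the set in the fit. Probe set 193640_s_at read 213, 326 and 175 on the skn-1 RNAi arrays, 154, 139.8, 257 and 405 on the oxygen arrays, and 119.4, 104, 132 and 276 on the control arrays. Probe set 175801_at read 195, 319 and 123 on the skn-1 RNAi arrays, 218, 191, 282 and 421 on the oxygen arrays, and 203, 189.8, 179.6 and 329 on the control arrays. In both probe sets the fourth control and oxygen arrays and the second skn-1 RNAi array were the highest of their groups, and they correlated with r = 0.84 after removal of set means. The oxygen minus control differences were 0.58 ± 0.42 (adjusted p = 0.653) and 0.28 ± 0.36 (adjusted p = 0.867). Of 9 tested epidermis markers, 0 passed limma's test and 0 had an unadjusted p under 0.05 in any of the 3 comparisons. Their summed signal was 13773 to 25199.9 in skn-1 RNAi with oxygen, 14793 to 24168 in oxygen and 18026 to 32054 in control.

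**Figure D3:**
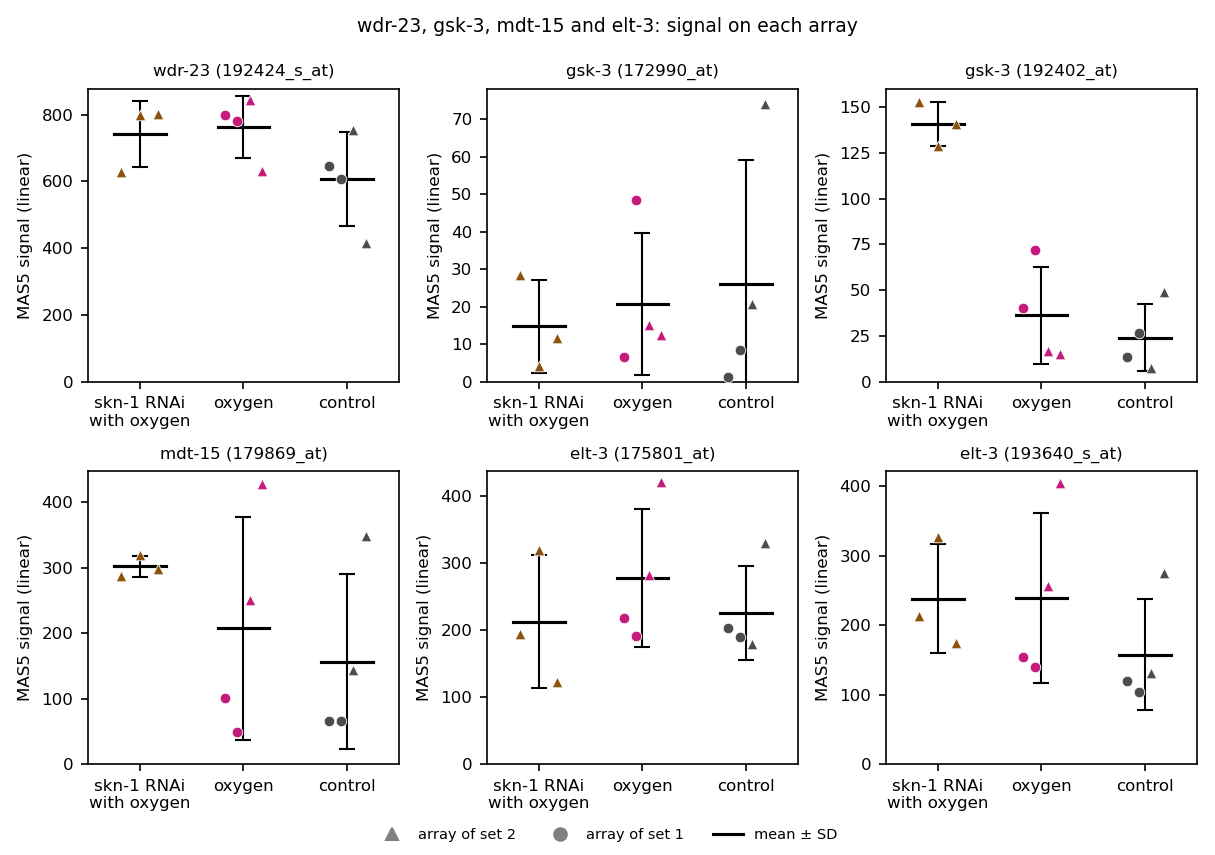
MAS5 signal (linear) of the wdr-23, gsk-3, mdt-15 and elt-3 probe sets on each array, for skn-1 RNAi with oxygen, oxygen and control; triangles are arrays of set 2, circles arrays of set 1, and bars give the mean ± SD. In gsk-3 probe set 192402_at the 3 skn-1 RNAi arrays (129 to 153) sit above the other 8 (7.5 to 72.1), and in mdt-15 the triangles sit above the circles.

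Counted together, oxygen raised 1 of the 13 tested probe sets over control (tir-1 192441_s_at) and lowered 0, where 3.83% of all tested probe sets were called, 3.29% higher and 0.539% lower. At an unadjusted p under 0.05 it was 3 of 13, and 14.5% of all. In the set-blocked fit 3 were called, both tir-1 probe sets and sek-1 192392_at, all higher, beside 9.26% of all (7.39% higher). The groups did not overlap in 2 of 13, both tir-1 and higher, against 10.4% of all tested probe sets (6.6% higher). The median log2 difference of the 13 was 0.57, and 0.055 over all tested probe sets. Of the 13, 11 lay above 0.

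For skn-1 RNAi with oxygen against oxygen, limma called 0 of the 13, where 0.227% of all probe sets were called (0.0455% higher and 0.182% lower), and 1 (gsk-3 192402_at) had an unadjusted p under 0.05, as had 9.77% of all. That probe set was also the 1 whose groups did not overlap, with skn-1 RNAi higher, against 17.2% of all (12% higher). With the array sets in the fit, 4 had an unadjusted p under 0.05, as had 13.9% of all (gsk-3 192402_at, skn-1 174799_at and 194169_s_at, and sek-1 175279_s_at, the last 3 of them lower) and 0 were called, beside 0.754% of all. The median log2 difference of the 13 was −0.039, and 0.22 over all. In the set-blocked fit it was −0.40 for the 13 and 0.016 over all.

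For skn-1 RNAi with oxygen against control, 2 of the 13 rose (tir-1 192441_s_at and gsk-3 192402_at) and 0 fell, beside 3.34% of all called, 2.49% higher and 0.851% lower. At an unadjusted p under 0.05 it was 4, and 20.8% of all. The set-blocked fit called 3, with tir-1 192441_s_at and gsk-3 192402_at higher and skn-1 174799_at lower, beside 4.54% of all (2.97% higher and 1.57% lower). The groups did not overlap in 4 (both tir-1 probe sets and gsk-3 192402_at higher, skn-1 194169_s_at lower), against 23.6% of all (16.9% higher and 6.69% lower). The comparisons share their oxygen or control arrays, so their values are given side by side and not set against each other.

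**Figure D4:**
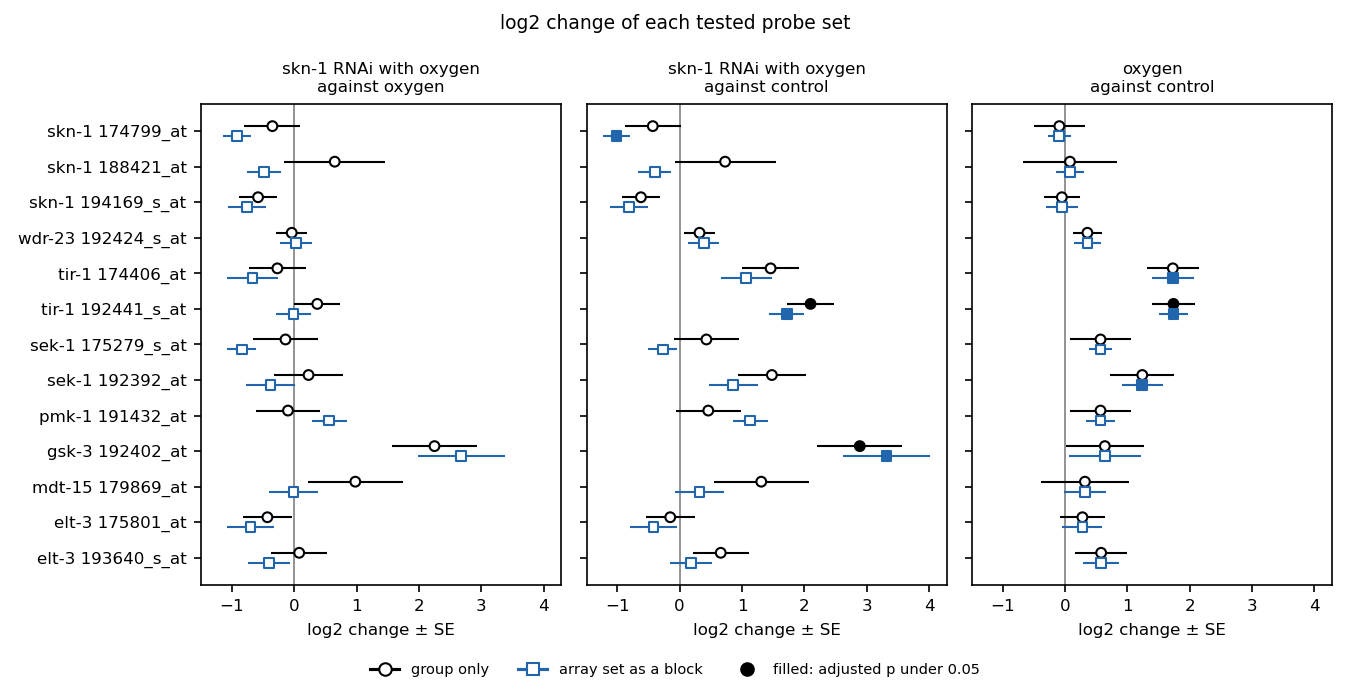
Log2 change ± SE of the 13 tested probe sets in 3 comparisons: black circles are the fit with group only, blue squares the fit with the array set as a block, and filled symbols have an adjusted p under 0.05. Filled symbols lie at tir-1 in both comparisons with control, at sek-1 192392_at for oxygen, at gsk-3 for skn-1 RNAi with oxygen against control, and at skn-1 174799_at on the left of 0 in the same panel.

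Other genes of these pathways were taken from lists of related genes. Among 25 tested genes of the p38 and parallel MAP kinase pathways, 2 rose with oxygen over control and 0 fell, where 3.83% of all tested probe sets were called. Set-blocked, 7 were called higher, adding kgb-1, dlk-1, vhp-1, unc-43 and nipi-3 (log2 0.91 to 1.47, adjusted p = 0.00459 to 0.0391), and 0 lower, beside 9.26% of all. Of the 2 called with group only, 1 was kgb-2, a kinase of the JNK family (139 ± 90.2 in oxygen and 11.5 ± 8.28 in control, SD, n = 4 each, log2 3.77 ± 0.70, adjusted p = 0.0143). Its control mean lay below the 40th percentile of each control array (15.1 to 45.6), so the size of its log2 difference rests on low signals. Within set 2 it was 5.73. The other was egl-8, a phospholipase C (102 ± 24.1 in oxygen and 48.6 ± 12.2 in control, log2 1.07 ± 0.26, adjusted p = 0.0473). Neither passed in skn-1 RNAi with oxygen against oxygen (log2 −1.30, adjusted p = 0.559, and −0.55, adjusted p = 0.529). In skn-1 RNAi with oxygen 0 of the 25 passed limma's test against oxygen and 0 against control. At an unadjusted p under 0.05 it was 2 and 7, beside 9.77% and 20.8% of all tested probe sets. The list's median log2 difference of oxygen from control was 0.55.

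Of 16 other kinases and insulin or TOR signalling genes, 0 passed limma's test in skn-1 RNAi worms against oxygen or against control. At an unadjusted p under 0.05 it was 1 in each, beside 9.77% and 20.8% of all tested probe sets. With oxygen over control 1 rose. That was nekl-2, a NIMA-related kinase that phosphorylates SKN-1 in other work (log2 1.17 ± 0.26, adjusted p = 0.0376). It averaged 164 ± 52.1 in skn-1 RNAi with oxygen, 288 ± 56.6 in oxygen and 128 ± 23.5 in control (SD, n = 3, 4 and 4). The log2 difference of skn-1 RNAi with oxygen from oxygen was −0.84 ± 0.29 (adjusted p = 0.417). The set-blocked fit also called akt-2, an Akt kinase, higher in oxygen than in control (log2 1.47, adjusted p = 0.00719). Of 21 genes of SKN-1 stability, processing and partners, 0 passed limma's test with group only in any comparison. At an unadjusted p under 0.05 it was 1 for skn-1 RNAi with oxygen against oxygen (9.77% of all tested probe sets), 2 for the same worms against control (20.8%), and 1 for oxygen against control (14.5%). The smallest p was that of ogt-1, an O-GlcNAc transferase, in skn-1 RNAi worms against control (log2 1.14 ± 0.36, adjusted p = 0.118); the set-blocked fit called it higher in oxygen than in control (0.82, adjusted p = 0.0297).

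Of 19 tested Mediator subunits, the relatives of MDT-15 in the complex, 0 passed in any comparison, with or without the set in the fit. With skn-1 RNAi, 3 had an unadjusted p under 0.05 against oxygen (9.77% of all tested probe sets) and 4 against control (20.8%), and 0 had one in oxygen against control (14.5%). In skn-1 RNAi worms against control mdt-10 had the smallest (212 ± 15.7 in skn-1 RNAi with oxygen and 504 ± 169 in control, log2 −1.18 ± 0.30, adjusted p = 0.061). Of 13 transcription factors that work with MDT-15 or SKN-1, 0 passed with group only, while 8 had an unadjusted p under 0.05 in oxygen against control, 7 of them higher (beside 10.4% of all tested probe sets higher). The smallest was that of nhr-80, a nuclear hormone receptor (log2 1.35 ± 0.36, adjusted p = 0.0717). The set-blocked fit called 4 higher in oxygen than in control, atf-4, xbp-1, hlh-30 and nhr-80 (log2 1.35 to 1.57, adjusted p = 0.00377 to 0.0439), beside 7.39% of all. Of 7 tested GATA factors, 0 passed with group only, and 1, elt-7, an intestinal factor, had an unadjusted p under 0.05 in oxygen against control (log2 1.20 ± 0.36, adjusted p = 0.118; adjusted p = 0.0184 in the set-blocked fit).

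Genes used as readouts were listed for SKN-1, PMK-1 and MDT-15. Both SKN-1 readouts rose with oxygen over control. The glutathione S-transferase gene gst-4 averaged 1240.4 ± 516 in skn-1 RNAi with oxygen, 4528 ± 522 in oxygen and 365 ± 283 in control (SD, n = 3, 4 and 4), with a log2 difference of oxygen from control of 3.92 ± 0.47 (adjusted p = 0.00149). The gene of a glutamate-cysteine ligase subunit, gcs-1, averaged 915 ± 119.7 in skn-1 RNAi with oxygen, 1526 ± 469 in oxygen and 471 ± 84.2 in control, and its difference of oxygen from control was 1.67 ± 0.25 (adjusted p = 0.00487). For both, the mean with skn-1 RNAi lay between the other two. The differences of skn-1 RNAi with oxygen from oxygen, log2 −1.94 (adjusted p = 0.258) and −0.70 (adjusted p = 0.465), did not pass, nor did they in the set-blocked fit (−2.03, adjusted p = 0.163, and −0.80, adjusted p = 0.247). Of 10 tested markers of the intestine, where SKN-1 acts, 3 fell with oxygen over control, pept-1 (log2 −3.58), act-5 (−2.0) and nhx-2 (−1.98), and cpr-1 rose (1.24). Their adjusted p was 0.000851 to 0.0309, where 0.539% of all tested probe sets were called lower and 3.29% higher. The set-blocked fit called the same markers. In skn-1 RNAi with oxygen, 1 of the 10 was called lower than in control (0.851% of all lower), and 2 set-blocked (1.57%). Against oxygen 0 were called in either fit. The summed signal of the 10 was 13346 to 17018 in skn-1 RNAi with oxygen, 14535 to 23727 in oxygen and 12733 to 26180.5 in control, and none was listed at 0. The germ line marker glh-1 fell too, the 1 of 12 called with group only (log2 −0.97, adjusted p = 0.0257), beside 0.539% of all called lower. Set-blocked, 3 of the 12 were called lower, glh-1, pgl-1 and egg-1 (adjusted p = 0.0105 to 0.0447), beside 9.26% of all called. The groups did not overlap in 4 of the 12, all lower, against 10.4% of all. The median log2 difference of the 12 was −0.40, and 0.055 over all. The part of these markers in the readouts was not tested.

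Of 10 genes used as readouts of PMK-1 in studies of infection, 4 rose with oxygen and 0 fell, where 3.29% of all tested probe sets were called higher and 0.539% lower. Set-blocked, 5 were called higher, adding C17H12.8 (log2 1.31, adjusted p = 0.0464), beside 7.39% of all. The 4 were catp-3, a P-type ATPase gene (26-fold, log2 4.70 ± 0.62, adjusted p = 0.00245), clec-67, a C-type lectin (6.82-fold, log2 2.77, adjusted p = 0.00341), mul-1, a mucin-like gene (12.3-fold, log2 3.62, adjusted p = 0.0395), and dod-22 (3.12-fold, log2 1.64, adjusted p = 0.0224). In skn-1 RNAi with oxygen against oxygen 0 of the 10 passed limma's test with group only. At an unadjusted p under 0.05 it was 3, all lower (9.77% of all tested probe sets had one in either direction).

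The mul-1 gene averaged 92.9 ± 37.4 in skn-1 RNAi with oxygen (n = 3), 898 ± 397 in oxygen and 134 ± 174 in control (n = 4 each, SD); its difference of skn-1 RNAi with oxygen from oxygen was log2 −3.26 ± 0.90 (adjusted p = 0.298). For irg-5, an infection response gene named here after its values were seen, the same difference was −2.12 ± 0.54 (adjusted p = 0.256), and the set-blocked fit called it (−2.79, adjusted p = 0.00592), with 552 ± 163 in skn-1 RNAi with oxygen and 2645 ± 1567 in oxygen. In contrast, catp-3, clec-67 and dod-22 had log2 differences of 0.10 ± 0.67, 0.30 ± 0.42 and 0.02 ± 0.36 from oxygen, with adjusted p of 0.963, 0.79 and 0.99. Whether the readouts differ from each other in this was not tested.

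Against control, 4 of the 10 rose in skn-1 RNAi with oxygen, catp-3 (log2 4.80), clec-67 (3.07), C17H12.8 (2.16) and dod-22 (1.66), and 1 fell, clec-85 (log2 −1.60 ± 0.29, adjusted p = 0.0161). Of all tested probe sets, 2.49% were called higher there and 0.851% lower. The set-blocked fit called 3 of the 10 higher, without dod-22 (adjusted p = 0.0553), and 2 lower, clec-85 and irg-5 (log2 −2.37, adjusted p = 0.00494), beside 2.97% of all higher and 1.57% lower. For clec-85, another C-type lectin, the levels were 243 ± 9.76 in skn-1 RNAi with oxygen, 457 ± 155 in oxygen and 746 ± 156 in control. Of the 5 MDT-15 readouts, desaturases and an acyl-CoA synthetase of lipid metabolism, 0 passed in any comparison. At an unadjusted p under 0.05 it was 1 for skn-1 RNAi with oxygen against oxygen (9.77% of all tested probe sets), 0 for those worms against control (20.8%) and 1 for oxygen against control (14.5%). The smallest p among them belonged to fat-6, a stearoyl-CoA desaturase, in skn-1 RNAi with oxygen against oxygen (1652 ± 267 in skn-1 RNAi with oxygen and 2678 ± 765 in oxygen, log2 −0.66 ± 0.26, adjusted p = 0.468).

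**Figure D5:**
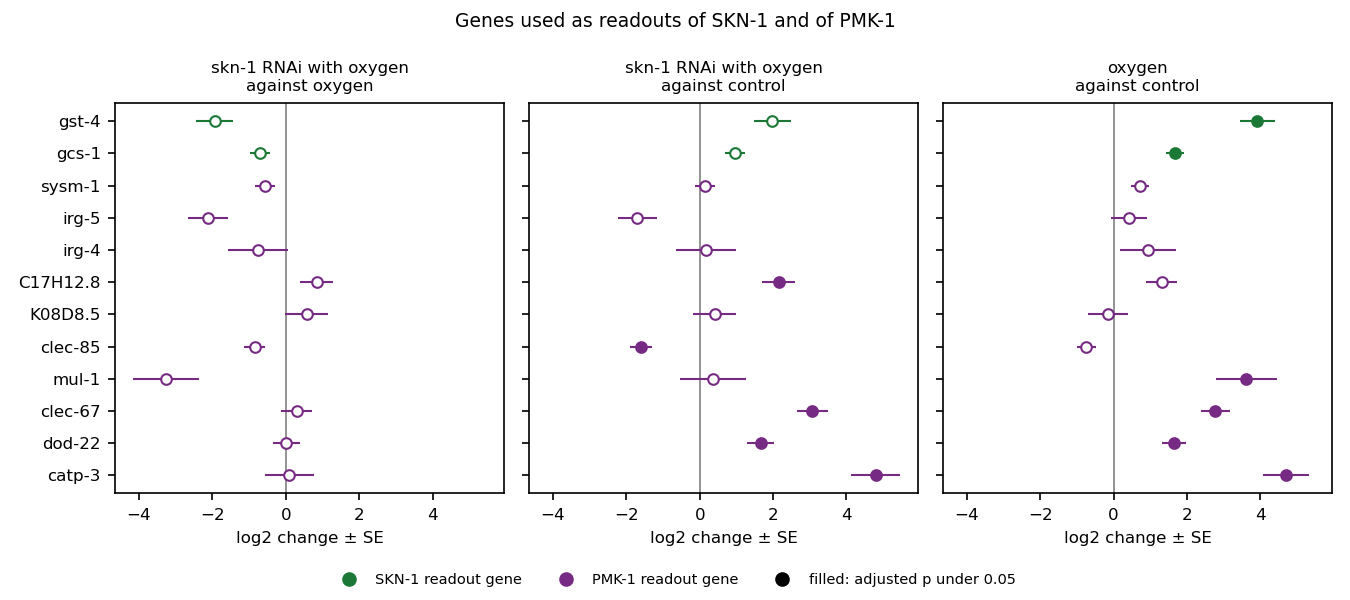
Log2 change ± SE of the genes used as readouts of SKN-1 (green) and PMK-1 (purple) in 3 comparisons from the fit with group only; filled symbols have an adjusted p under 0.05. In the panel of oxygen against control, gst-4, gcs-1, catp-3, clec-67, mul-1 and dod-22 are filled, and no symbol is filled for skn-1 RNAi with oxygen against oxygen.

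The genes whose signal followed each regulator most closely over the 11 arrays, after the mean of each array set was subtracted, are a description of arrays that share their groups, and each name is the highest of 15389 correlations. For skn-1 194169_s_at they were ule-4, K10D2.5, F57C2.4, F35H10.6 and Y32F6A.5, with Pearson r of 0.882 to 0.916. For tir-1 192441_s_at they were ztf-13, Y43F8B.2, F57A8.1, C32F10.4 and Y57G11B.2 (r of 0.957 to 0.974), and for tir-1 174406_at tth-1, T23B3.2, snb-2, exc-5 and lro-1 (0.954 to 0.974). For gsk-3 192402_at they were R13H4.2, txt-9, clec-83, pph-6 and phkb-1 (0.908 to 0.944). The 2 tir-1 probe sets shared no gene in these lists.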

How the data were processed

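Transcripts of whole worms were measured on 11 Affymetrix arrays, 1 per sample. The deposited values are signal intensities that the authors computed by MAS5, using GCOS 1.4 according to the submitters' processing notes. The scaling target is not given in the sources used here. Genes were named from GEO's platform annotation. The 1 value of 0 was set to 0.1. Probe sets on which at least 3 of 11 arrays reached their array's 40th percentile were tested (15389), leaving 1 of the 14 described here out. Log2 signals were fitted with limma 3.58.1 (R 4.3.3), using every array and group as the only term. Tests are two-sided and p-values are Benjamini-Hochberg adjusted over all tested probe sets, with a threshold of 0.05. The fit was tested on simulated data with known changes in oxygen against control. It called 12.1% of the changes of log2 1, 50% of log2 2 and 71.4% of log2 3. A difference that did not pass the test may therefore still be present. The simulated noise was drawn independently for each array, without array sets, so these shares may differ in the real data. No array column was unused (0). The labels name no separate cultures, so the p-values reflect the spread among the samples, which may be technical.

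The members and all gene lists were chosen with earlier results of these data known. Genes named are all members; from each list, up to 4 genes with the smallest adjusted p among those called, or the 1 with the smallest p where none was; and the 5 genes most correlated with each of 4 probe sets. The irg-5 gene, genes called only in the set-blocked fit, tissue markers and the values of called readouts in the other comparisons were added after their values were seen.

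Alternatives were the array set as a block, each set alone, the replicate number as a block, quantile normalization, median centring, 16 added to the signal, no filter, a stricter filter (50th percentile), only the groups compared, and leaving out each array; the set block after median centring was chosen after seeing the data. Same-numbered oxygen and control arrays deviated together (r of 0.45 to 0.57, all over 0.1), and they share an array set; after removing set means r was 0.05 and 0.22. Numbers of the skn-1 RNAi arrays did not pair with the others (r of −0.13 to 0.00).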

Additional observations from a re-analysis of the deposited data

Results flagged for a closer look

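Among 28 groups of 4 arrays, 4 held 1 array far from the other 3, by Dixon's test of the gap over the group's range at the 95% level. Chance gives about 1 group in 20. In skn-1 194169_s_at, control 3 read 797, and the other controls 442 to 454. In sek-1 192392_at, control 4 read 214, and the others 45 to 70.1. In elt-3, control 4 read 329 against 179.6 to 203 for the other controls (175801_at), and 276 against 104 to 132 (193640_s_at). The elt-3 flags come from the same array and gene, so they are not independent. Control 3 and control 4 belong to set 2. Control 4 also had the lowest correlation with its group (0.822), a value that carries the gap between the sets.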

How the results depend on the processing

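Among the 13 probe sets, oxygen against control gave 1 call with group only, 3 with the array set as a block, 0 within set 2, 0 within set 1, 0 after median centring, 2 with 16 added, 2 with the stricter filter, 2 with the set block after median centring, and 0 to 2 when 1 array was left out. Between skn-1 RNAi with oxygen and oxygen, 0 calls were made throughout. Between skn-1 RNAi worms and control there were 2 with group only, 3 with the set block, 0 within set 2, 4 with the replicate block, 1 after quantile normalization, 0 after median centring, 1 without the filter, 1 with only the groups compared, and 0 to 3 when 1 array was left out. Over all tested probe sets, oxygen against control gave calls in 3.83%, 9.26% with the set block, 0.195% within set 1, 1.91% after median centring, 2.25% with only the groups compared, 2.14% to 3.79% with 1 array left out, and 15.2% with the set block after centring (614 higher and 1731 lower, against 507 and 83). For skn-1 RNAi with oxygen against oxygen the share was 0.227%, and 0.754% with the set block, 0.117% within set 2, 0.37% after quantile normalization, 0.435% with 16 added, 0.0887% without the filter, 0.143% with only the groups compared, 0.104% to 0.37% with 1 array left out, and 0.565% with the set block after centring (48 higher and 39 lower, against 7 and 28). Median centring alone gave 2 higher and 26 lower there. For skn-1 RNAi worms against control it was 3.34%, and 1.86% within set 2, 10.8% with the replicate block, 1.4% after median centring (110 higher and 105 lower, against 383 and 131), 1.16% without the filter, and 0.773% to 4.07% with 1 array left out. Quantile normalization gave 207 higher and 221 lower. The cause of these differences was not tested. Median centring moved the median log2 difference of all probe sets to −0.31 for oxygen against control, where it was 0.055 without it. With the replicate block, pairing arrays by number, the 2 further calls against control were sek-1 192392_at (log2 1.87, adjusted p = 0.0227) and mdt-15 (1.80, adjusted p = 0.0387). This block pairs skn-1 RNAi arrays 1 and 2, of set 2, with control arrays of set 1, so these calls carry the gap between the sets. In the set-blocked fit the same differences were 0.86 (adjusted p = 0.246) and 0.32 (adjusted p = 0.664). With the replicate block, the call of tir-1 192441_s_at for oxygen remained (adjusted p = 0.00679). No called value changed direction in these alternatives. The limits are 3 or 4 arrays per group, low gsk-3 signals in oxygen and control, and 2 array sets, of which set 2 holds all skn-1 RNAi arrays.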
